A study of Rattus norvegicus with 9 samples.

Results

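The hairpins mir-126, mir-221 and mir-222 were followed through the small RNA of the rat left ventricular wall, because all 3 are known from endothelial cells. Members were taken by name: every sequence that the authors filed under the rat entries mir-126, mir-221 or mir-222 in their table of annotated reads, whatever its type of match. This gave 793 of the 31220 sequences filed under rat entries, 672 of mir-126, 69 of mir-221 and 52 of mir-222, with 102786 reads in all. Tissue came from 3 male Sprague-Dawley rats aged 8 months (hearts 6, 7 and 8), for which no treatment is given, and the free wall of each left ventricle was cut into epicardium, mid-myocardium and endocardium. Each layer of each heart was 1 TruSeq small RNA library, so there were 9 libraries, 3 per layer, and all 3 layers of a heart came from the same animal. The layers are slices of whole muscle, and the samples hold every cell type in the slice.

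miR-126 lies in an intron of Egfl7, a gene of vascular endothelium, and is the miRNA most closely tied to that cell type; it is known for sustaining signalling by vascular growth factors and for keeping vessels intact. miR-221 and miR-222 are processed from 1 primary transcript on the X chromosome, share their seed, and are known in endothelium for restraining the stem cell factor receptor Kit and in smooth muscle for promoting growth. A miRNA recognises its targets mainly through the seed, bases 2 to 8 from its 5′ end, so a read that starts 1 nucleotide further along carries a different seed.

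The 6 mature sequences are shown first because the results turn on which arm of each hairpin was read and where the reads began. They are RefSeq sequences (assembly GRCr8, plus strand), with the seed in capitals. RefSeq names miR-126 of the rat miR-126a.
miR-126-5p (called miR-126* in the deposited table): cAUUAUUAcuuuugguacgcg
miR-126-3p: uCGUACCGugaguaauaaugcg
miR-221-5p (miR-221*): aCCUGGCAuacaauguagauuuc
miR-221-3p: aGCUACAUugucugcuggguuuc
miR-222-5p: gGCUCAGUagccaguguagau
miR-222-3p: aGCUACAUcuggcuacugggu
miR-221-3p and miR-222-3p were identical over their first 8 bases, seed included, and the other 4 seeds were each found once. The exact entries in the deposited table were the same as the RefSeq sequences for the 5 arms that had reads. miR-126-5p is at chr3:29813182-29813202 and miR-126-3p at chr3:29813219-29813240, inside the span of Egfl7 and opposite an antisense hairpin. miR-222-3p is at chrX:6022682-6022702 and miR-221-3p at chrX:6023246-6023268, with 458 bases between their hairpins, inside the spans of RefSeq gene models that have no name beyond a locus number. Exon or intron was not assigned at this locus, since only gene spans were used.

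Levels are given in RPMM, the reads of a sequence divided by the annotated reads of its library and multiplied by 1000000. Whole reads were recovered from all values, and annotated reads ran from 283991 in mid-myocardium of heart 6 to 1428025 in endocardium of heart 7. In these libraries 3 reads, the limit that a count of 0 allows, were 10.6 and 2.10 RPMM. The 3 hairpins together made up 1.09% to 1.63% of annotated reads. The floor and every interval of a share reflect counting error alone, as amplified reads carried no molecular identifier and may repeat a molecule. The paper also warns that cloning, adapter ligation and amplification may favour some sequences over others. Ranks and ratios of different sequences are therefore those of reads and need not be those of molecules. Nothing in the labels marks a batch other than layer and heart.

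By reads, both arms of miR-126 were among the abundant small RNAs of the wall, while miR-221 and miR-222 were read almost only from the 3p arm and at far lower levels. Over the 9 libraries miR-126-5p averaged 8117 ± 2033 RPMM (SD, n = 9) and miR-126-3p 5419 ± 1382, which placed them 20th and 24th of the 372 arms of rat entries that reached 10 reads in 1 library or more. miR-221-3p averaged 124 ± 38.7 RPMM (151st) and miR-222-3p 62.2 ± 16.5 (190th). miR-126-3p had 26.9 to 79.0 times the reads of miR-221-3p in the same library. In the order of mean levels miR-126-5p stood between miR-99b (8491 ± 6710 RPMM) and miR-29a (7043 ± 2235), and miR-126-3p between let-7c (6288 ± 1219) and miR-125b (5348 ± 2085). Each of these neighbours was within 1 SD of the miR-126 arm beside it. miR-221-3p stood between miR-340 (124 ± 30.4) and miR-532 (124 ± 31.7), and miR-222-3p between the precursor reads of miR-100 (62.2 ± 21.1) and miR-3577 (58.1 ± 14.2), none of which differed from it by more than its SD.

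The 5p arms of the other 2 hairpins were scarce. miR-221-5p had 54 reads in all, 2 to 16 per library, with a mean of 7.83 ± 6.35 RPMM. Of the reads of both arms of miR-221 it took between 1.71% and 17.0%, the highest share being that of epicardium in heart 7. No sequence was filed as miR-222-5p, and no annotated sequence held the first or the last 15 bases of its RefSeq entry. A count of 0 allows up to 3 reads, or 2.10 to 10.6 RPMM by library.

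miR-126-3p measured 4930, 7997 and 4004 RPMM in epicardium of hearts 6, 7 and 8. In mid-myocardium it measured 6190, 5968 and 5988 RPMM, and in endocardium 5466, 3172 and 5059. Epicardium therefore held both a library above and libraries below all of mid-myocardium, and its range took in every value of the other layers except the lowest, endocardium of heart 7. miR-126-5p measured 6726, 5400 and 11919 RPMM in epicardium. It measured 9666, 8481 and 5823 RPMM in mid-myocardium and 8552, 7438 and 9046 in endocardium. Here too the values of epicardium ran from the lowest of all 9 to the highest, so that the layers overlapped.

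miR-221-3p measured 183, 101 and 69.8 RPMM in epicardium of hearts 6, 7 and 8. It measured 155, 154 and 115 RPMM in mid-myocardium and 124, 72.1 and 143 in endocardium. The highest and the lowest of these 9 values were both epicardial. miR-222-3p measured 52.2, 85.6 and 36.5 RPMM in epicardium. It measured 59.9, 89.0 and 51.3 RPMM in mid-myocardium and 57.6, 62.3 and 65.8 in endocardium. In endocardium the 3 hearts were close together, and they fell within the range of both other layers. The library with the fewest reads behind these values was mid-myocardium of heart 6, with 44 reads of miR-221-3p and 17 of miR-222-3p.

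**Figure D1:**
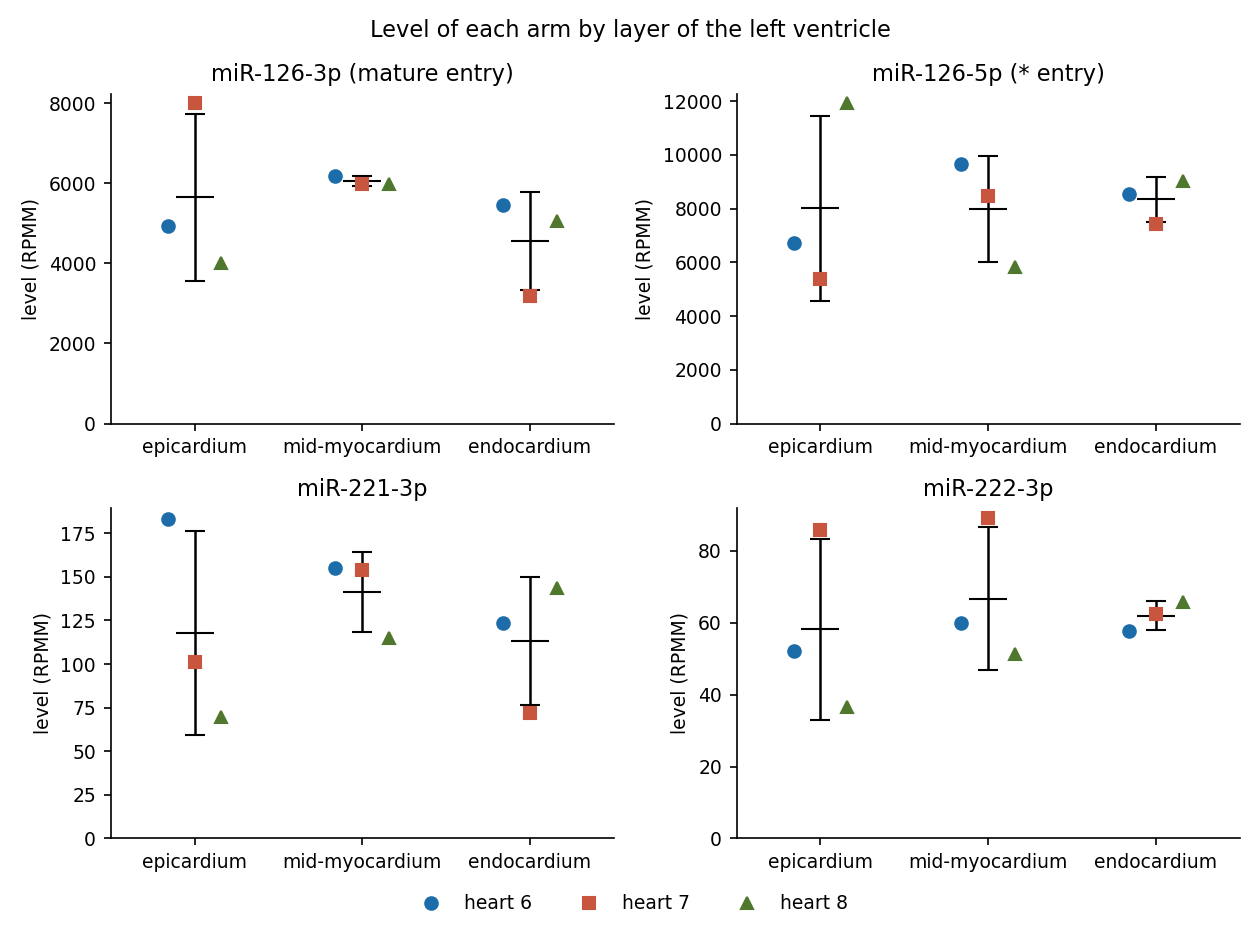
Level in RPMM (linear axis from 0) of miR-126-3p, miR-126-5p, miR-221-3p and miR-222-3p in the 3 layers. Each symbol is 1 library, shaped by heart, and the black line and bars are the mean and SD of 3 libraries; the layers overlap in every panel, and the spread is widest in epicardium.

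The first question was whether any of these miRNAs differed across the ventricular wall. No difference passed the test. limma on log2(RPMM + 1), with Benjamini-Hochberg adjustment over 372 arms and a threshold of 0.05, called 0 of the 7 member arms and precursor classes that were tested in each of the 3 contrasts between layers. The same was true of all arms: 0% were called for endocardium against epicardium, 0% for mid-myocardium against epicardium and 0% for endocardium against mid-myocardium. At an unadjusted p below 0.05 there were 12, 16 and 17 arms in these contrasts, none of them a member. Also on the recovered reads, edgeR's quasi-likelihood test and DESeq2 called 0 arms in each contrast, with 13, 18 and 15 arms for edgeR and 11, 15 and 9 for DESeq2 at an unadjusted p below 0.05.

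The 95% intervals show how uncertain each difference was. They come from a fit with layer alone and no term for heart, and are not adjusted for the number of arms. A difference outside them could therefore still have gone uncalled. For miR-126-3p, endocardium minus epicardium was -0.28 on the log2 scale (SE 0.32, 95% interval -1.01 to 0.44, limma adjusted p = 0.996), from means of 4566 and 5643 RPMM. Endocardium minus mid-myocardium was -0.44 (SE 0.32, interval -1.17 to 0.28, limma adjusted p = 0.897), the furthest from 0 that miR-126-3p came, and without endocardium of heart 7 it was -0.20. Endocardium minus epicardium was 0.00014 without epicardium of heart 7 and -0.04 without endocardium of heart 7. For miR-126-5p the 3 differences lay between 0.05 and 0.14 with an SE of 0.34 each. Their signs depended on the method in 2 contrasts, since edgeR and DESeq2 put both differences from epicardium slightly below 0.

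For miR-221-3p, mid-myocardium minus epicardium was 0.36 (SE 0.39, interval -0.52 to 1.24, limma adjusted p = 0.913). Endocardium minus epicardium of miR-221-3p was -0.01 (interval -0.89 to 0.87), and this sign turned when RPMM were put on the total of rat reads. For miR-222-3p, mid-myocardium minus epicardium was 0.24 (SE 0.34, interval -0.53 to 1.01) and endocardium minus epicardium 0.17 (interval -0.60 to 0.94). Over the 7 arms and precursor classes the median difference of endocardium minus epicardium was -0.01, against 0.02 over all 372 arms. In whole tissue, fewer cells of a type and less RNA per cell cannot be told apart.

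**Figure D2:**
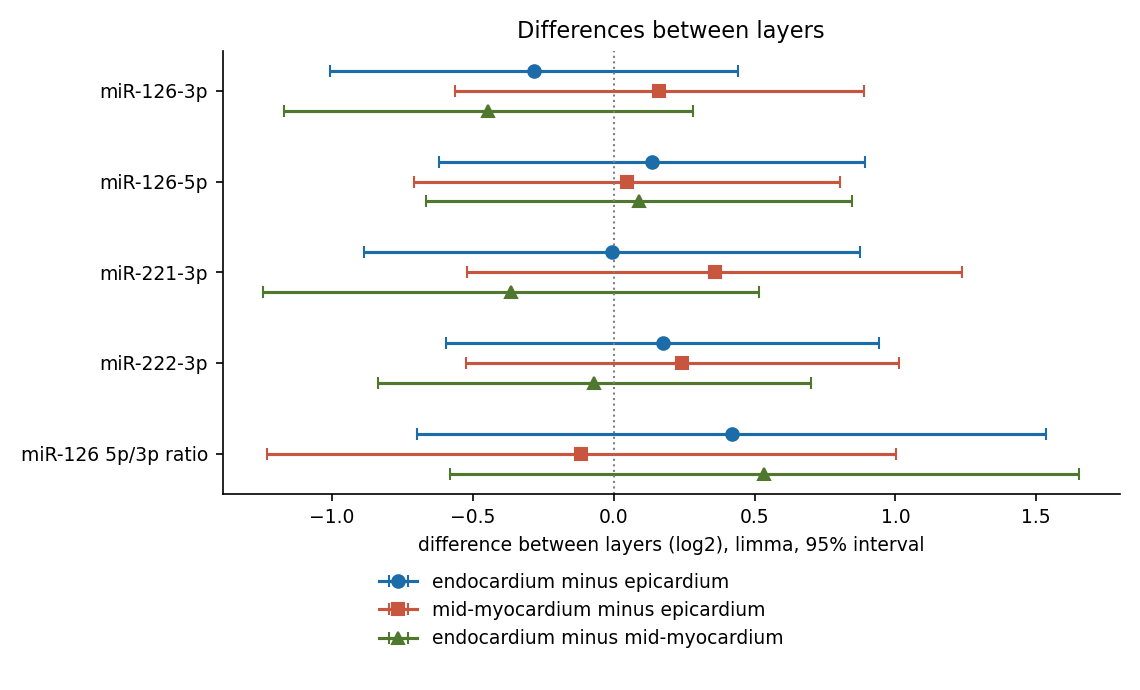
Differences between layers on the log2 scale for the 4 main arms and for the 5p to 3p ratio of miR-126, 1 symbol per contrast with its 95% interval from limma over 9 libraries. All 15 intervals include 0, and each reaches past 0.5 in at least 1 direction.

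Animals were compared next. limma's F test over the 3 hearts, with layer as a covariate, called 0% of the 372 arms, with 47 at an unadjusted p below 0.05 and no member among these. edgeR called 14 arms and DESeq2 16, and none was a member. miR-222-3p had the smallest limma p of the members (adjusted p = 0.588). In heart 7 its mean was 79.0 ± 14.5 RPMM, against 56.5 ± 3.97 for heart 6 and 51.2 ± 14.6 for heart 8 (n = 3 layers each). The means of miR-126-3p were 5529 ± 633 RPMM for heart 6, 5712 ± 2423 for heart 7 and 5017 ± 993 for heart 8, and heart 7 held both the highest and the lowest of its 9 values.

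miR-126-5p, named as the minor strand in the deposited table, had more reads than miR-126-3p in 7 of the 9 libraries. The ratio of 5p to 3p reads was 1.36, 0.675 and 2.98 in epicardium of hearts 6, 7 and 8. It was 1.56, 1.42 and 0.973 in mid-myocardium and 1.56, 2.35 and 1.79 in endocardium. Both libraries below 1 were outside the endocardium, yet the widest range was again that of epicardium, which spanned all 9 values. The mean ratio was 1.67 ± 1.18 in epicardium, 1.32 ± 0.308 in mid-myocardium and 1.90 ± 0.402 in endocardium. As both arms are counted in the same library, this ratio does not depend on the total to which a library is scaled.

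On the log2 ratio of arms, limma over 53 hairpins called neither miR-126 nor miR-221 in any contrast between layers. It called 0% of hairpins for endocardium against epicardium (1 at an unadjusted p below 0.05), 0% for mid-myocardium against epicardium (4 unadjusted) and 1.89% for endocardium against mid-myocardium, which was mir-455 (6 unadjusted). The call of mir-455 (log2 difference 1.56, limma adjusted p = 0.0479) was lost with heart as a block (limma adjusted p = 0.0735) and in 6 of the 9 fits that left out 1 library, and 1 more did not test it. For miR-126 the difference in log2 ratio, endocardium minus epicardium, was 0.42 (SE 0.50, interval -0.70 to 1.54, limma adjusted p = 0.891), and without epicardium of heart 7 it was -0.11. Endocardium minus mid-myocardium was 0.53 (SE 0.50, interval -0.58 to 1.65, limma adjusted p = 0.611). Between hearts limma called 3.77% of ratios, mir-99b and mir-145, and no member (miR-126, adjusted p = 0.935).

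Set beside other hairpins, the * arm outnumbered the mature arm on average in 12 of 53, and miR-126 stood 11th with a mean log2 ratio of 0.59. miR-221 stood 31st with -3.99, where the median hairpin was at -3.41. Among the 13 hairpins with at least 50 reads of both arms in every library, the ratio of miR-126 had the second widest spread, with an SD of 0.63 on the log2 scale against a median of 0.41 (range 0.25 to 0.70). Its highest library was 4.41 times its lowest.

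As filed, the ratio between the clustered miRNAs was steadier in direction. Reads filed under miR-221-3p exceeded those filed under miR-222-3p in 9 of 9 libraries. Reads of the 3p arm that were filed under the precursor were not counted here. In epicardium of heart 7 these were 15 for miR-222 and 1 for miR-221, beside 66 and 78 reads filed under the arms. With them, miR-222 would have the larger count in that library. The ratio was 3.51, 1.18 and 1.91 in epicardium of hearts 6, 7 and 8, 2.59, 1.73 and 2.24 in mid-myocardium, and 2.15, 1.16 and 2.18 in endocardium. Heart 7 had the lowest ratio of the 3 hearts in every layer, a pattern noticed after the values were seen and not tested.

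**Figure D3:**
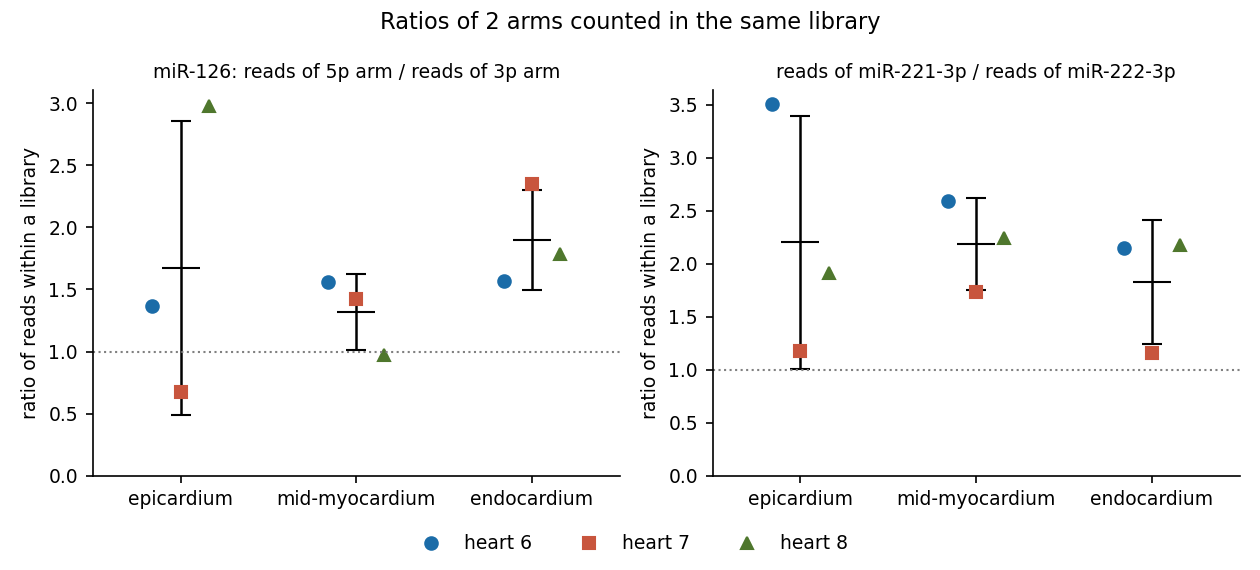
Ratio of reads within each library (linear axis from 0, dotted line at 1): miR-126-5p over miR-126-3p on the left and miR-221-3p over miR-222-3p on the right, by layer. Symbols are libraries shaped by heart, and lines and bars are means and SDs of 3 libraries. The left ratio falls below 1 in 2 libraries and the right one in none. Reads filed under the precursor are not counted in either ratio.

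The 2 arms of miR-126 differed in how precisely their reads began. Reads of miR-126-5p began at the first base of the entry in 99.3% ± 0.115 of cases (mean ± SD of 9 libraries), whereas reads of miR-126-3p did so in 75.6% ± 0.956. Most of the rest of miR-126-3p, 20.6% ± 1.35 of its reads, began 1 nucleotide later, and 3.51% ± 0.795 began 1 nucleotide earlier. The share beginning 1 later was between 19.1% and 22.9% in every library. For shares of miR-126-3p by type of end or mismatch, the width of a library's 95% Wilson interval divided by 2 was at most 2.29 percentage points. The 5 most abundant forms of miR-126-3p are given as deposited, in DNA letters with bases 2 to 8 in capitals, to show that 2 of them carry a seed moved by 1 base.
miR-126-3p, exact entry: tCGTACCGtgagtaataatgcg
miR-126-3p, 2 shorter: tCGTACCGtgagtaataatg
miR-126-3p, 1 shorter: tCGTACCGtgagtaataatgc
miR-126-3p, 1 later and 1 longer: cGTACCGTgagtaataatgcgt
miR-126-3p, 1 later: cGTACCGTgagtaataatgcg
These took 34.4% ± 5.68, 10.6% ± 1.53, 10.1% ± 4.67, 8.39% ± 1.80 and 7.37% ± 1.71 of the reads of the arm. The 2 forms with the moved seed averaged 465 ± 168 and 382 ± 52.4 RPMM, each above the level of all of miR-221-3p.

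Set beside the 98 arms with at least 50 reads in every library and 1 exact entry, miR-126-3p ranked 9th for reads with another 5′ end and 5th for reads that begin 1 later. The median arm had 1.53% and 0.545% of such reads. miR-126-5p ranked 74th for another 5′ end, and with 79.9% ± 4.41 exact reads it ranked 3rd for the share of the exact entry, where the median was 32.5%. miR-126-3p was 48th of 98 in this share.

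At the 3′ end the arms of miR-126 also carried letters that the hairpin does not hold. The 3 most abundant forms of miR-126-5p are given with such letters in capitals.
miR-126-5p, exact entry: cattattacttttggtacgcg
miR-126-5p with A added: cattattacttttggtacgcgA
miR-126-5p with T added: cattattacttttggtacgcgT
The exact entry averaged 6541 ± 1887 RPMM, the form with A 446 ± 85.7 and the form with T 356 ± 96.7. All tails made of A together took 6.70% ± 1.16 of the reads of miR-126-5p and tails made of T 4.85% ± 1.52. On miR-126-3p the figures were 14.8% ± 2.18 and 1.42% ± 0.181, so that A tails were more frequent there than on miR-126-5p. T tails cannot be compared between the arms. The hairpin itself holds a T straight after the miR-126-3p entry, so a T added there was not counted as a tail. Any mismatch to the hairpin was found in 18.8% ± 2.25 of the reads of miR-126-3p, and a mismatch within the last 3 bases in 17.9% ± 2.35. Mismatches inside the read were rare by comparison. The most frequent of them were C7T in miR-126-3p (66 reads, 0.168% of the arm) and T10C in miR-126-5p (111 reads, 0.184%), with base 1 the first of the entry.

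miR-221-3p and miR-222-3p began at the first base of their entries in 99.1% ± 1.15 and 98.0% ± 2.17 of reads, so their shared seed was kept in nearly all. Their 3′ ends departed from the entries in opposite directions. miR-221-3p was most often 1 base shorter than its entry, and miR-222-3p was 3 bases longer. Capitals mark a letter not in the hairpin for miR-221-3p and the bases beyond the entry, which the hairpin does hold, for miR-222-3p.
miR-221-3p, 1 shorter: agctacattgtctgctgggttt
miR-221-3p, exact entry: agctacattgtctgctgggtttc
miR-221-3p with T at the last base: agctacattgtctgctgggtttT
miR-222-3p, 3 longer: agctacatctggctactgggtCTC
miR-222-3p, 2 longer: agctacatctggctactgggtCT
miR-222-3p, exact entry: agctacatctggctactgggt
The forms of miR-221-3p took 40.2% ± 5.28, 20.1% ± 5.30 and 9.60% ± 3.30 of its reads. For miR-222-3p the longest form took 70.4% ± 10.7, the form 2 longer 14.4% ± 5.87, and the exact entry 3.61% ± 1.40, or 16 of 467 reads. The most abundant form of miR-222-3p outnumbered the exact entry in each of the 9 libraries. A form 4 bases longer was filed under the precursor, with 51 reads of the 85 there. In single libraries the form 3 longer ran from 52.9% to 84.8% of the reads of miR-222-3p. No interval was computed for single forms. For shares by type of end or mismatch, the width of the 95% Wilson interval divided by 2 reached 14.2 percentage points for miR-221-3p. For miR-222-3p it reached 13.0, and the shallowest library had 44 and 17 reads of the 2 arms. Such intervals are not symmetric, so 1 side can be longer.

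**Figure D4:**
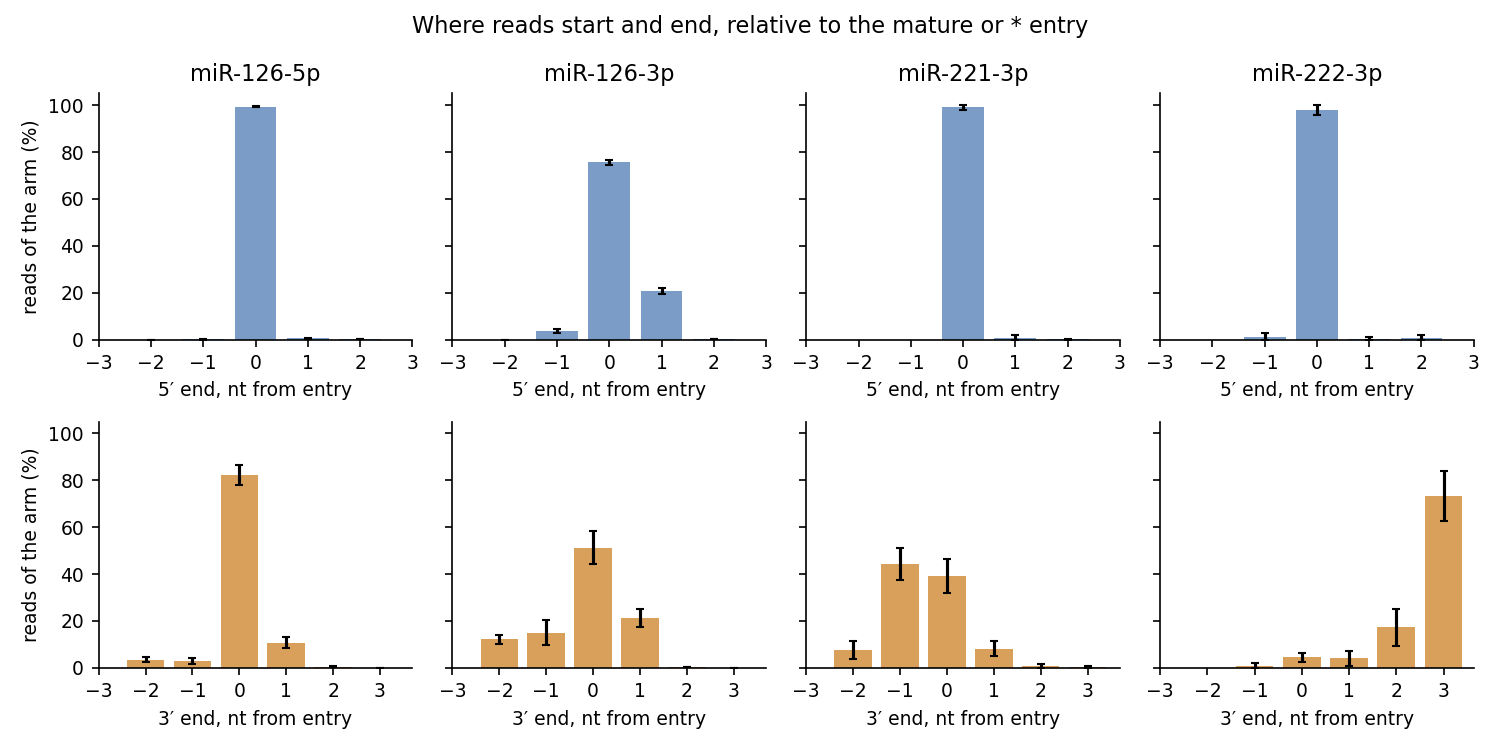
Share of the reads of each arm (%, mean and SD of 9 libraries, lower bars stopped at 0) by where they start (upper row) and end (lower row), in nucleotides from the entry, where negative is upstream. miR-126-3p is the one arm of the 4 with many reads starting at +1 (20.6%), and miR-222-3p ends 3 nucleotides past its entry in 73.5% of reads.

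Whether these shares changed across the wall was tested for the 2 arms of miR-126, which had at least 50 reads in every library. An exact permutation test over the assignment of 9 libraries to 3 layers called 0 of 10 shares (exact, another 5′ end, longer 3′, shorter 3′, any mismatch, for each arm), with adjusted p-values from 0.663 to 0.929 and 0 shares at an unadjusted p below 0.05. The exact share of miR-126-3p averaged 31.0% ± 5.82 in epicardium, 34.1% ± 5.49 in mid-myocardium and 38.1% ± 5.19 in endocardium (exact permutation p = 0.354, adjusted 0.663). Reads with another 5′ end made up 23.8% ± 0.873, 24.4% ± 1.23 and 25.0% ± 0.575 in the same order (exact permutation p = 0.354).

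Over hearts the same exact permutation test called 0 of 10 shares as well, with adjusted p = 0.907 for each, while the smallest p that 1680 assignments allow was 0.00357. This depended on 1 library. The exact share of miR-126-3p was 35.9%, 39.8% and 39.2% in epicardium, mid-myocardium and endocardium of heart 6. In heart 7 it was 24.6%, 28.9% and 42.7%, and in heart 8 32.5%, 33.6% and 32.5%. Without endocardium of heart 7, the library with the most reads, the 3 hearts did not overlap and the exact permutation test gave an adjusted p of 0.0357. Each of the 9 libraries was left out in turn, and this was the only call among all these tests. The adjustment covered only the 10 shares of 1 such run. Epicardium of heart 7 had the largest share of reads shortened at the 3′ end, 40.2%, against 21.3% in endocardium of the same heart.

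Single sequences were also compared. Of the 1686 sequences of rat entries with a mean of at least 10 RPMM, 42 were members: 23 of miR-126-3p, 11 of miR-126-5p, 4 filed under the mir-126 precursor, 3 of miR-221-3p and 1 of miR-222-3p. limma called 0 of the 42 in each contrast between layers, where 0% of all sequences were called for endocardium against epicardium (36 at an unadjusted p below 0.05), 0% for mid-myocardium against epicardium (69) and 0% for endocardium against mid-myocardium (50). The median difference of the 23 sequences of miR-126-3p, endocardium minus epicardium, was -0.46 on the log2 scale and that of the 11 of miR-126-5p 0.03, against -0.02 over all 1686. The median of the 23 was -0.01 without endocardium of heart 7 and -0.10 without epicardium of heart 7, and that of the 11 ran from -0.11 to 0.21 with 1 library left out. The 23 share the same libraries and 1 hairpin and are not separate measurements of it. The paper lists 1 of them, the form of miR-126-3p 1 base shorter, among sequences chosen by fold change between epicardium and endocardium. That form measured 364, 1503 and 597 RPMM in epicardium and 325, 241 and 571 in endocardium of hearts 6, 7 and 8. Between hearts limma called 3.62% of all sequences, and 0 of the 42 members. The lowest adjusted p of a member was 0.109, for miR-126-5p with AA added, which had 2.60 to 7.97 RPMM in the 3 layers of heart 7 and 10.7 to 23.7 RPMM in the other 6 libraries.

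Few of the reads filed under the mir-126 precursor spanned more than an arm. Of 1476 such reads, 1208 lay in the 3p arm (15 to 26 nucleotides), 176 lay in the 5p arm, and 69 covered the 5p arm with the loop, at 33 to 40 nucleotides. The reads of arm and loop measured 16.8 RPMM (24 reads) in endocardium of heart 7, the library with the most reads, and 2.60 to 11.8 RPMM (2 to 11 reads) in the others. The precursor class as a whole averaged 201 ± 49.8 RPMM. All 34 precursor reads of mir-221 and 84 of the 85 of mir-222 lay in the 3p arm.

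Some reads of these miRNAs may be filed elsewhere. Entries of other species with the same names held 51 reads of miR-126, 9 of miR-221 and 4 of miR-222, and an entry of zebrafish named mir-126a held 505, against 39344 for rat miR-126-3p. The zebrafish reads were not added to any value. The antisense hairpin, mir-3567, had 3 reads in all. No unannotated sequence began with 15 bases of any of the 3 hairpins on either strand.

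Levels of other miRNAs moved with the members over the 9 libraries as follows, given as Pearson's r of log2(RPMM + 1) and as a description only, since all values share libraries and totals. miR-126-3p was most like miR-29a (r = 0.94), miR-27a (0.90) and the precursor reads shared by miR-27b and miR-27a (0.85), of 158 arms with a mean of at least 100 RPMM. miR-126-5p was most like miR-181d (0.79), miR-3585 (0.76) and miR-21 (0.71). The 2 arms of miR-126 had r = -0.43 with each other. miR-221-3p was most like let-7f (0.95), reads shared by let-7a, let-7f and let-7i (0.90), and reads of let-7f-2 alone (0.89), and miR-222-3p most like miR-128 (0.88) and the mature (0.84) and precursor (0.82) reads of miR-451, a miRNA of red cells. miR-221-3p and miR-222-3p, although from 1 transcript, had r = 0.34.

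Other miRNAs known for a part in endothelium or vessel growth were taken from a list, which was chosen with earlier results of these data known. Of 22 listed, 19 had at least 1 arm or precursor class tested (41 in all), and mir-18a, mir-19a and mir-218 had none. limma called 0 of the 41 in each contrast, with 0, 2 and 4 at an unadjusted p below 0.05 for endocardium against epicardium, mid-myocardium against epicardium and endocardium against mid-myocardium. Their median difference was -0.03, -0.03 and -0.04, against 0.02, 0.05 and -0.00012 over all arms. Between hearts limma also called 0 of them, with 3 at an unadjusted p below 0.05. The 4 low in p for endocardium minus mid-myocardium, named after their values were seen, were miR-17 (log2 difference -0.87, SE 0.30), the * arm of miR-210 (-0.91, SE 0.32), miR-19b (-0.75, SE 0.30) and precursor reads of miR-92a-1 (0.65, SE 0.27), each with a limma adjusted p of 0.897. The 2 for mid-myocardium minus epicardium were miR-19b (0.86, SE 0.30) and precursor reads of miR-181b-1 (-2.23, SE 0.97), at 0 reads in 3 libraries, each with a limma adjusted p of 0.889. miR-17, miR-19b and miR-92a-1 belong to a cluster known for acting on vessel growth. miR-17 and miR-19b were lower in endocardium than in mid-myocardium and the precursor reads of miR-92a-1 higher, and none of these differences was called. Precursor reads are another class than mature reads, and the reads of miR-19b were filed jointly under mir-19b-1 and mir-19b-2. Whether the cluster moved together was not tested. The listed miR-20a and mature miR-92a-1 were tested too and were not below an unadjusted limma p of 0.05 in any contrast between layers. For endocardium minus epicardium the 2 with the smallest p were miR-132, which is known to promote vessel sprouting, and miR-31. The paper already lists both, in the same directions, among miRNAs chosen by fold change between these layers of the same hearts. miR-132 measured 37.3, 37.6 and 30.1 RPMM in epicardium and 12.7, 26.6 and 25.0 in endocardium of hearts 6, 7 and 8 (log2 difference -0.74, SE 0.34, limma adjusted p = 0.996). miR-31 measured 10.6, 14.3 and 1.07 RPMM in epicardium and 23.9, 10.5 and 31.6 in endocardium (log2 difference 1.55, SE 0.73, limma adjusted p = 0.996). Its value in epicardium of heart 8 was below the 3.22 RPMM that 3 reads made in that library.

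miRNAs listed for other cell types were read in every library, each of the 19 with at least 13 reads. Each list's summed level rested mostly on 1 member: miR-133a made up 94.0% of the 5 listed for cardiomyocytes, miR-143 98.1% of the 2 for smooth muscle, miR-29a 68.8% of the 5 for fibroblasts, miR-486 99.5% of the 3 for red cells and miR-150 85.8% of the 4 for leukocytes. The cardiomyocyte list ran from 52616 to 105570 RPMM in epicardium, 102931 to 140846 in mid-myocardium and 59692 to 101576 in endocardium. In the same layers the smooth muscle list, miR-143 and miR-145, ran from 97508 to 154732, 91689 to 125466 and 97988 to 144182 RPMM. The fibroblast list ran from 6895 to 15128, 11053 to 13924 and 6158 to 11028 RPMM and the leukocyte list from 6824 to 13404, 8793 to 11624 and 9465 to 14105. The red cell list ran from 111952 to 162812, 93800 to 137307 and 148707 to 228889 RPMM, but miR-486, read here from entries of any species, is known from muscle as well as from red cells. Its other members, miR-451 and miR-144, are more particular to red cells by background knowledge. miR-451 ran from 377 to 960, 627 to 890 and 510 to 764 RPMM, and miR-144 from 46.8 to 97.3, 45.8 to 207 and 40.8 to 134, so both overlapped between all layers. miR-133a and miR-29a were lower, and miR-486 higher, in every endocardial library than in every library of mid-myocardium, while the other members of their 3 lists overlapped between these layers. The gaps were narrow. miR-133a reached 94852 RPMM in endocardium and was at least 96884 in mid-myocardium, and miR-29a 7330 and 7483. miR-486 reached 136635 RPMM in mid-myocardium and was at least 147934 in endocardium. How many of all arms separate these layers in the same way was not counted. limma called 0% of the 372 arms in this contrast, but these were arms of rat entries only. miR-486 had no rat entry and was not among them, so this fit did not test its difference. The part of these cell types in the levels of miR-126, miR-221 and miR-222 was not tested.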

How the data were processed

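Per the labels and the study's methods, the authors trimmed the reads, annotated them with CLC Genomics Workbench v4.0 against miRBase v18 (up to 2 mismatches, and up to 3 bases added or removed at either end) and deposited each sequence in RPM of annotated reads (RPMM). The authors also deposited a raw count of each unannotated sequence with at least 10 reads. A grouped table on mixed totals was not used. Values were whole multiples of 1 read in 100% of cases (tolerance 0.01), and reads were recovered.

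Reads were summed by arm (rat entries, at least 10 reads in at least 1 library). limma 3.58.1 (R 4.3.3) was run on log2(RPMM + 1) over all 9 libraries, with Benjamini-Hochberg adjustment at 0.05. Single sequences averaging 10 RPMM or more and log2 ratios of arms were fitted likewise. The main contrasts between layers had no term for heart, although the layers of a heart came from the same animal. Read shares were compared by an exact permutation test of the spread between group means over 1680 assignments. edgeR 4.0.16 and DESeq2 1.42.0 on recovered reads were alternatives, as were other totals, pseudocounts and filters, heart as a block, and leaving out each library. Fits were tested on simulated data. Member reads were placed on RefSeq hairpins without gaps, and their mismatches equalled the deposited number for 793 of 793. The letters of the mir-126 hairpin were taken as the reverse complement of its antisense entry. Python 3.11.15, scipy 1.17.1 and matplotlib 3.10.9 were used.

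Heart numbers in the labels pair the libraries. Deviations from layer means correlated at -0.24 to 0.36 within hearts (mean 0.13) and -0.07 between them on average. That replicates are separate animals is given by the heart numbers.

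Named were all member arms, their exact and 5 most abundant sequences, any member past the threshold, the 2 listed endothelial miRNAs with the smallest p for endocardium minus epicardium (none passed the threshold), the 3 most similar arms and the neighbours in rank. Members and lists were chosen with earlier results of these data known.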

Additional observations from a re-analysis of the deposited data

How the results depend on the processing

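For the 4 main arms and the miR-126 ratio, 15 differences between layers were computed again under 276 alternatives in all. None passed the threshold (lowest adjusted p 0.469), 253 kept their sign and 23 did not. The sign changed for miR-126-5p with edgeR (-0.031 for endocardium and -0.11 for mid-myocardium, each minus epicardium), with DESeq2 (-0.013 and -0.092) and, for mid-myocardium, with TMM factors (-0.00289). On the total of rat reads it changed for miR-221-3p (endocardium minus epicardium, 0.062) and miR-222-3p (endocardium minus mid-myocardium, 0.024).

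With 1 library left out, endocardium minus epicardium ran from -0.50 to 0.00014 for miR-126-3p, -0.11 to 0.46 for miR-126-5p, -0.32 to 0.37 for miR-221-3p, -0.11 to 0.49 for miR-222-3p and -0.11 to 0.96 for the ratio. Mid-myocardium minus epicardium ran from -0.054 to 0.44, -0.20 to 0.37, 0.04 to 0.73, -0.042 to 0.56 and -0.64 to 0.43 in the same order. Endocardium minus mid-myocardium ran from -0.59 to -0.20, -0.12 to 0.24, -0.56 to -0.07, -0.24 to 0.16 and 0.33 to 0.67.

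Calls between layers over all arms ran from 0 to 1 with 1 library left out (1 without endocardium of heart 7), and were otherwise 0. Heart differences of arms numbered 0, and 14 with edgeR, 16 with DESeq2, 4 with TMM, 1 on rat reads, 13 with a pseudocount of 10, 10 with at least 10 reads in every library, and 0 to 5 with 1 library left out (5 without mid-myocardium of heart 8, 1 without epicardium of heart 8 or endocardium of heart 7). Arm ratios called between layers numbered 1 (mir-455), 0 with heart as a replicate block, 0 with exact sequences only, where mir-455 was not tested, and 0 to 1 with 1 library left out. The call of mir-455 held without epicardium of heart 7 or 8. It was lost without epicardium or endocardium of heart 6, endocardium of heart 8 or any library of mid-myocardium, and without endocardium of heart 7 mir-455 was not tested and mir-128-1 was called instead (endocardium minus epicardium). Between hearts they numbered 2, 0 with exact sequences only, and 0 to 2 with 1 library left out (0 without epicardium or endocardium of heart 6, 1 without epicardium of heart 8 or mid-myocardium of heart 6). Sequences called between hearts numbered 61, 27 with a mean of at least 100 RPMM, and 8 to 69 with 1 library left out (8 without epicardium of heart 6, 25 without endocardium of heart 6, 38 without epicardium of heart 8). Shares of miR-126 called over hearts ran from 0 to 1. No member was called by limma, edgeR or DESeq2 under any of these, nor in the paired fits: the replicate block changed no other call by over 1.5 times (54 sequences between hearts). In no alternative was the cause of a change tested. Depth limited miR-221-5p and the shares of miR-221-3p and miR-222-3p.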
